A study of Mus musculus with 12 samples.

Results

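Keratins are the intermediate filament proteins of epithelia, and each filament pairs a type I with a type II keratin. The simple-epithelium keratins Krt7, Krt8, Krt18 and Krt19 are the ones known from bile duct epithelium and ductal liver tumors, whereas the genes described here belong to stratified epithelia such as skin, oral mucosa and the basal layer of the airways. The list holds 10 genes of the 47069 in the count table. Krt5, Krt14 and Krt15 are keratins of the basal layer, Krt6a, Krt6b, Krt16 and Krt17 are the so-called stress keratins of wounded or activated keratinocytes, and Krt4, Krt13 and Krt76 belong to the upper layers of mucosal epithelia. The type II members Krt4, Krt5, Krt6a, Krt6b and Krt76 lie in the keratin cluster of mouse chromosome 15, and the type I members Krt13, Krt14, Krt15, Krt16 and Krt17 in that of chromosome 11.

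The cells came from organoids grown from liver tumors that had been induced with diethylnitrosamine (DEN) in Lgr5-DTR-GFP mice on the C57BL/6 strain, in which the diphtheria toxin receptor and GFP are made under control of the Lgr5 promoter. All groups carried this allele. Cells were sorted on GFP into LGR5+ and LGR5- populations, from organoids left untreated or treated with the chemotherapeutic 5-fluorouracil (5-FU), and 3 libraries were sequenced in each of the 4 groups. The mice were a few weeks old at the first DEN injection and received it weekly. The ages at which the tumors behind these libraries were taken, the 5-FU dose and duration for these samples and the number of organoid lines are not tied to the libraries in the sources used here, so the SDs and SEs measure the spread between these libraries, which may be technical.

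The libraries held 13750591 to 19323514 counted reads. Levels are given as CPM (reads of a gene relative to all counted reads, scaled to a common library size) after TMM scaling, a scaling that corrects for differences in library composition, and 3 reads, the most that a count of 0 allows, set the floor for folds against groups with 3 or fewer reads in each library. Lgr5 itself did not differ beyond its spread between the libraries labelled LGR5+ and LGR5-, with 25.7 ± 2.12 CPM against 28.8 ± 6.63 in untreated and 27.0 ± 0.196 against 25.1 ± 9.50 in 5-FU-treated cells (SD, n = 3 each). The study describes its tumor organoids as resembling either cholangiocarcinoma or hepatocellular carcinoma. In these libraries 8 hepatocyte markers summed to 1.76 to 4.18 CPM, 7 cholangiocyte markers, Krt7 and Krt19 among them, to 2388 to 11895 CPM and 6 alveolar type 2 markers, led by Sftpc, to 3033 to 17475 CPM. Mitochondrial genes took 6.93% and 6.44% of the reads in the untreated and the 5-FU-treated LGR5- libraries numbered 3, against 1.47% to 3.08% in the other 10.

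Because counting depends on sequence, the members were first compared with each other. Krt6a and Krt6b have 97.8% identical coding bases, 1625 of 1662 aligned, and are the closest pair. Next come Krt14 and Krt16 with 86.2%, Krt14 and Krt17 with 82.9% and Krt5 and Krt6a with 80.5%, and the most distant pair of one type is Krt5 and Krt76 with 69.5%. The 90 coding bases below, from exon 4 of each gene, are shown because they hold 12 of the differences by which reads of Krt6a and Krt6b can be told apart. They are the minus-strand sequences of chr15:101692484-101692573 (Krt6a) and chr15:101678303-101678392 (Krt6b) on GRCm38, with the differing bases in capitals.
Krt6a: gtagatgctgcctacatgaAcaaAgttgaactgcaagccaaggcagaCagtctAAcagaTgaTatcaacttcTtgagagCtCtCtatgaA
Krt6b: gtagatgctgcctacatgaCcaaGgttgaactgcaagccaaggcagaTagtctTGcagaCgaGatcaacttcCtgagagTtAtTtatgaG

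Over stretches of 150 bases, the length of 1 read, 30.2% of the positions in the Krt6a transcript and 18.8% of those in Krt6b also occur in another gene. The matches of Krt6b are in Krt6a, and those of Krt6a are in Krt6b, Gm5478 and Gm49428. Gm5478 held 0 to 9 reads in any library. For Krt16, 18.4% of the positions occur in Gm11597, which held 0 to 3 reads in any library. The other 7 members share no such stretch. Reads could therefore have been divided between Krt6a and Krt6b, and their separate values are less certain than their sum. On the opposite strand, Gm44323, Gm44342, Gm44383 and Gm44356 overlap exons of Krt5, Krt6a, Krt6b and Krt76, and they had 0 reads in all libraries. Gm49428 also lies opposite Krt6a and was not found in the count table, and whether counting used the strand is not given in the sources used here.

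Promoter sequence was at hand at the coding start of 3 members. The 250 bases before the start of Krt5 (type II, basal), Krt13 (type I, mucosal) and Krt76 (type II, mucosal) are printed because these 3 genes differ in class and level but were all higher after 5-FU. They are RefSeq sequences on GRCm38.p6, minus strand, at chr15:101712906-101713155, chr11:100121567-100121816 and chr15:101892921-101893170, with capitals for the letters searched: ATAAA and TATAAA on the strand of the gene in the last 50 bases, and TGANTCA (the AP-1 motif) and GCCNNNGGC (the AP-2 motif), which read the same on both strands, in all 250.
Krt5: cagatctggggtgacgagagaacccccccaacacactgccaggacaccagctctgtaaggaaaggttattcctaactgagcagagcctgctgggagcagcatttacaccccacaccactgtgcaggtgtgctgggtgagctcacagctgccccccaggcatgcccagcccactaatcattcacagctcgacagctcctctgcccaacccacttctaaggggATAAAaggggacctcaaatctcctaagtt
Krt13: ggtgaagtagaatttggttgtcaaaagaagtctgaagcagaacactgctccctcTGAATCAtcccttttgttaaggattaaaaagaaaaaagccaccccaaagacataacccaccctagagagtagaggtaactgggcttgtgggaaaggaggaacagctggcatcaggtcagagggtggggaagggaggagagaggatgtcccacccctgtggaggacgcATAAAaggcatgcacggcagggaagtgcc
Krt76: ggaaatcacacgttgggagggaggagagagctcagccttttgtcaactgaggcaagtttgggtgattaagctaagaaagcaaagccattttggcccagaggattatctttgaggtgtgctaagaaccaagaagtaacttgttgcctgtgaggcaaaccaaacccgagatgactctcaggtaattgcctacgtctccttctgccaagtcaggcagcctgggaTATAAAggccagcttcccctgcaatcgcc

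ATAAA stood in all 3, beginning 29 bases before the start in Krt5 and Krt13 and 28 in Krt76, and in 6.57% of the last 50 bases of 32851 mouse promoter windows. In Krt76 it was part of TATAAA, found in 2.63% of the windows. TGANTCA occurred once, in Krt13, 196 bases before the start, against 6.75% of all windows, and GCCNNNGGC in none of the 3, against 13.7%. These are matches of letters and say nothing of a factor's binding.

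All 10 genes were higher in each of the 5-FU-treated libraries than in each of the untreated libraries of the same population. The members were chosen by their counts and CPM over these same 4 groups, so the values that follow are a description and carry no test. Of the members, 10 were called at an adjusted p under 0.05 in LGR5+ cells, where 9.66% of the 16157 genes tested were called higher and 6.37% lower (16.0% in all), and 10 in LGR5- cells, where 8.30% were called higher and 7.11% lower (15.4% in all). Every library was higher after 5-FU for 22.3% of all genes in LGR5+ and 13.7% in LGR5- cells, and nothing is read from the members' counts beside these shares. With genes at or under the floor in the untreated group put at their lower bound, the median log2 fold change of the members was 4.81 in LGR5+ and 3.75 in LGR5- cells, where the medians over all genes were -0.02 and -0.05. In bulk samples such as these, a change in the share of cells that express a gene cannot be told apart from a change in RNA per cell.

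**Figure D1:**
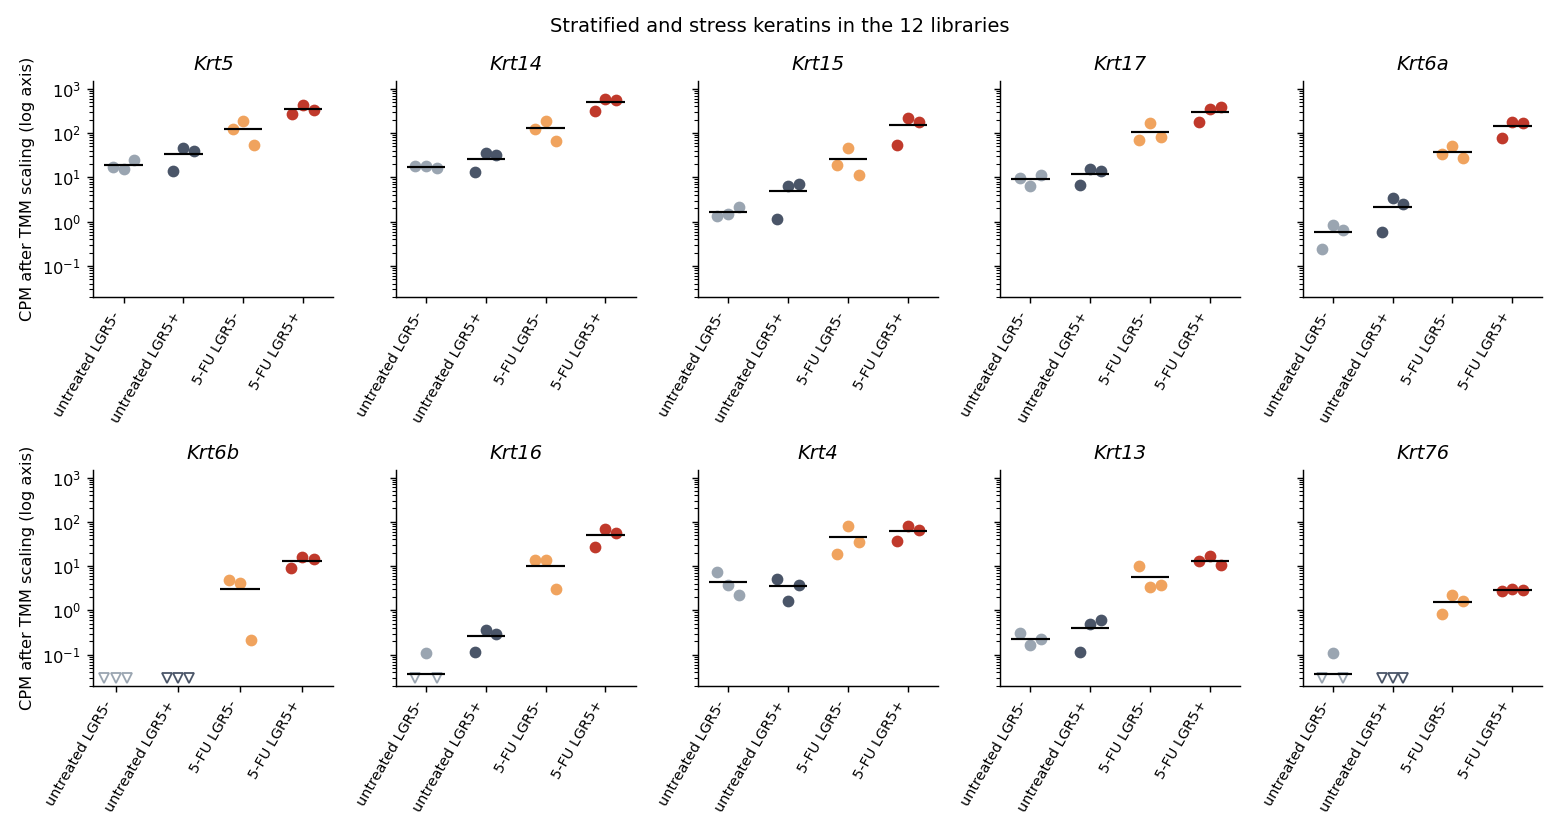
CPM after TMM scaling on a log axis for each of the 10 keratins; points are libraries, horizontal lines are group means (n = 3), and open triangles at the bottom are libraries with 0 reads. In each panel the 5-FU-treated libraries lie above the untreated libraries of the same population, and in 9 of 10 panels the 5-FU-treated LGR5+ libraries also lie above the 5-FU-treated LGR5- ones.

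Among the basal keratins, Krt14, the type I partner of Krt5, had the highest mean level per kb of exon after 5-FU in both populations, although in LGR5- cells Krt14, Krt17 and Krt5 (73.2 ± 35.9, 69.9 ± 35.3 and 55.0 ± 30.6 CPM per kb) did not differ beyond their spread. It stood at 18.2, 18.5 and 16.0 CPM in untreated LGR5- libraries 1 to 3 and at 127, 193 and 66.5 CPM after 5-FU. In LGR5+ libraries it stood at 13.2, 34.8 and 32.1 CPM untreated and at 323, 597 and 558 CPM after 5-FU. The lowest 5-FU-treated library was thus above the highest untreated one in both populations, and the log2 fold change was 4.21 (SE 0.43) in LGR5+ and 2.87 (SE 0.41) in LGR5- cells.

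Krt5, the type II keratin of the basal layer, was present in all libraries and had the smallest fold change of the list in the main fit. Its untreated levels were 16.97, 15.6 and 24.2 CPM in LGR5- and 13.7, 46.3 and 39.1 CPM in LGR5+ libraries. After 5-FU these were 123, 187 and 52.7 CPM in LGR5- and 267, 439 and 326 CPM in LGR5+ libraries. Library 3 of the LGR5- cells lay closest to the untreated range, and the log2 fold changes were 3.38 (SE 0.48) in LGR5+ and 2.68 (SE 0.47) in LGR5- cells. The 1-SE ranges overlapped with those of Krt4 in LGR5+ (4.11, SE 0.62) and Krt14 in LGR5- cells (2.87, SE 0.41). Under other settings in LGR5- cells Krt5 ran from 2.60 to 3.25 and Krt14 from 2.81 to 3.12, so their order was not stable.

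Krt15, a type I keratin of basal and stem-like keratinocytes, had the largest SE among the basal keratins. In LGR5- libraries it went from 1.33, 1.48 and 2.11 CPM to 18.8, 46.5 and 11.5 CPM, and in LGR5+ libraries from 1.15, 6.27 and 7.17 CPM to 54.6, 222 and 179.8 CPM. No treated library reached down to the untreated range of its population. The log2 fold change was 4.97 (SE 0.78) in LGR5+ and 3.96 (SE 0.79) in LGR5- cells, and 3.20 in LGR5- cells when the treated library numbered 2, the highest of its group, was left out.

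Among the stress keratins, Krt6a, Krt6b and Krt16 began at few or no reads, and Krt17, which pairs with Krt6 in wounded epidermis, did not. It stood at 9.76, 6.53 and 11.6 CPM in untreated LGR5- and at 6.87, 15.3 and 13.7 CPM in untreated LGR5+ libraries. After 5-FU it reached 71.5, 171 and 82.4 CPM in LGR5- and 175, 344 and 386 CPM in LGR5+ libraries. Its log2 fold change was 4.66 (SE 0.44) in LGR5+ and 3.54 (SE 0.42) in LGR5- cells.

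Krt6a, a type II keratin induced in wound edges, had few reads before treatment, at 4, 15 and 12 reads in LGR5- and 10, 55 and 41 reads in LGR5+ libraries. After 5-FU the reads numbered 584, 856 and 379 in LGR5- and 1414, 3181 and 2970 in LGR5+ libraries. Group means went from 0.577 ± 0.300 to 37.4 ± 11.5 CPM in LGR5- and from 2.14 ± 1.43 to 143 ± 54.8 CPM in LGR5+ cells (SD, n = 3). The log2 fold changes, 6.07 (SE 0.53) in LGR5+ and 5.98 (SE 0.58) in LGR5- cells, were closer to each other than for any other member that had a measurable fold in both populations.

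Krt6b, its near-copy, had no read in any of the 6 untreated libraries. After 5-FU it had 84, 71 and 3 reads in LGR5- and 162, 287 and 251 reads in LGR5+ libraries. Against the floor this was at least 73.7-fold higher in LGR5+ and at least 18.2-fold higher in LGR5- cells, by group means. In the treated LGR5- library numbered 3, however, the 3 reads were no more than the floor itself.

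Krt16, the type I partner of Krt6, had 0, 2 and 0 reads in untreated LGR5- and 2, 6 and 5 reads in untreated LGR5+ libraries. After 5-FU it had 230, 238 and 42 reads in LGR5- and 480, 1227 and 933 reads in LGR5+ libraries. The fold in LGR5+ cells was the largest measured one of the list, with a log2 fold change of 7.54 (SE 0.68) on means of 0.261 ± 0.131 and 49.7 ± 20.7 CPM. In LGR5- cells the level was at least 59.6-fold higher, at 10.2 ± 6.15 CPM.

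Among the mucosal keratins, Krt4, the type II keratin of the suprabasal oesophagus and oral lining, stood at 7.21, 3.84 and 2.22 CPM in untreated LGR5- and 5.20, 1.66 and 3.82 CPM in untreated LGR5+ libraries. After 5-FU it had 18.9, 79.9 and 34.6 CPM in LGR5- and 37.4, 81.5 and 66.8 CPM in LGR5+ libraries. Krt4 was the only member whose 5-FU-treated populations overlapped, and its log2 fold changes were 4.11 (SE 0.62) in LGR5+ and 3.33 (SE 0.60) in LGR5- cells. Without the treated LGR5- library numbered 2, the latter was 2.59.

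Krt13, the type I partner of Krt4 in these tissues, began much lower, with 5, 3 and 4 reads in untreated LGR5- and 2, 8 and 10 reads in untreated LGR5+ libraries. It had 169, 58 and 51 reads in LGR5- and 229, 303 and 179 reads in LGR5+ libraries after 5-FU. The log2 fold change was 5.04 (SE 0.54) in LGR5+ cells and 4.60 (SE 0.57) in LGR5- cells, or 3.92 without the treated LGR5- library numbered 1. Which of the LGR5- libraries stood highest after 5-FU therefore differed between the partners, number 2 for Krt4 and number 1 for Krt13.

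Krt76, a type II keratin of the palate and other masticatory surfaces, had the lowest level per kb after 5-FU of all members, with 2 reads before treatment in a single untreated library and 0 in the other 5. It had 14, 38 and 22 reads in LGR5- and 49, 55 and 50 reads in LGR5+ libraries after 5-FU. These were at least 9.09-fold higher in LGR5- and at least 16.2-fold higher in LGR5+ cells. Around 50 reads per library is little, and the counting error of each value is correspondingly wide.

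**Figure D2:**
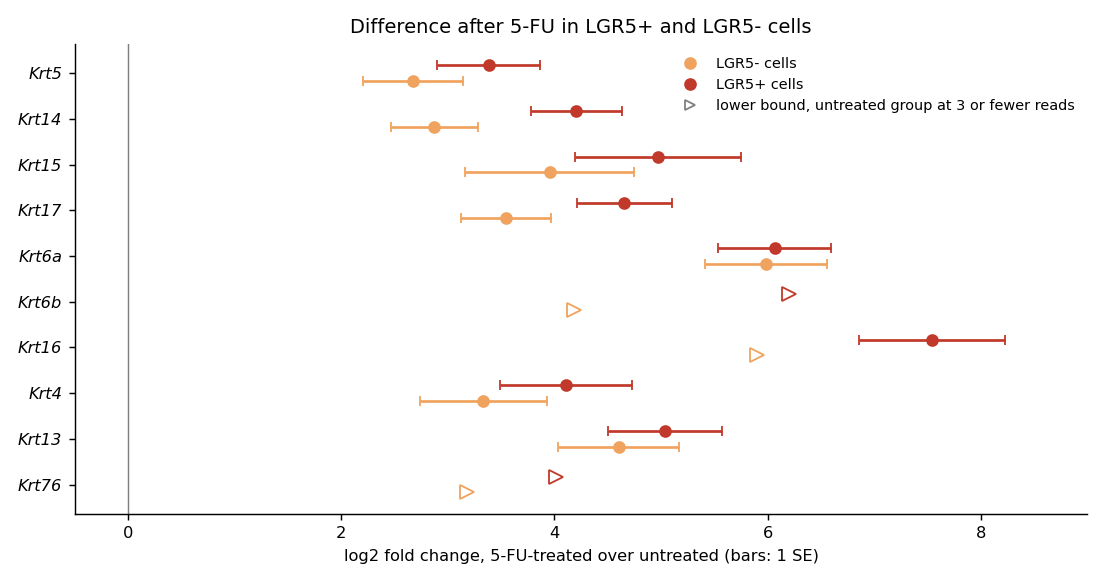
Log2 fold change of 5-FU-treated over untreated cells for each keratin in LGR5+ (red) and LGR5- (orange) cells; points with bars are edgeR estimates ± 1 SE from 3 libraries a group, and open triangles are lower bounds for genes with 3 or fewer reads in each untreated library. Estimates run from 2.68 for Krt5 in LGR5- cells to 7.54 for Krt16 in LGR5+ cells, and the bars of the populations overlap for Krt4, Krt5, Krt6a, Krt13 and Krt15.

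Summed over the 10 genes, keratin RNA was 40.9 to 109 CPM in untreated libraries, 284 to 751 CPM in 5-FU-treated LGR5- and 989 to 1961 CPM in 5-FU-treated LGR5+ libraries. Divided by exon length, so that genes can be compared with each other, Krt14, Krt5 and Krt17 made up most of this sum in every group, at 36.1%, 30.5% and 21.1% in untreated LGR5- cells and 33.2%, 19.1% and 22.7% in 5-FU-treated LGR5+ cells (means, n = 3). The share of Krt5 was lower after 5-FU in every treated library than in every untreated one, at 15.3% to 24.9% against 26.9% to 37.0%. Krt6a gained share, from 0.873% to 6.31% in LGR5- and from 1.83% to 6.82% in LGR5+ cells, and Krt16 from 0.373% to 3.64% in LGR5+ cells. The order of the genes by level per kb of exon at the top was Krt14, Krt17, Krt5, Krt15 in 5-FU-treated LGR5+ cells. Their levels were 280.4 ± 84.3, 195 ± 72.0, 157 ± 39.6 and 86.1 ± 49.3 CPM per kb (SD, n = 3), and the ranges of neighbours in this order overlapped.

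**Figure D3:**
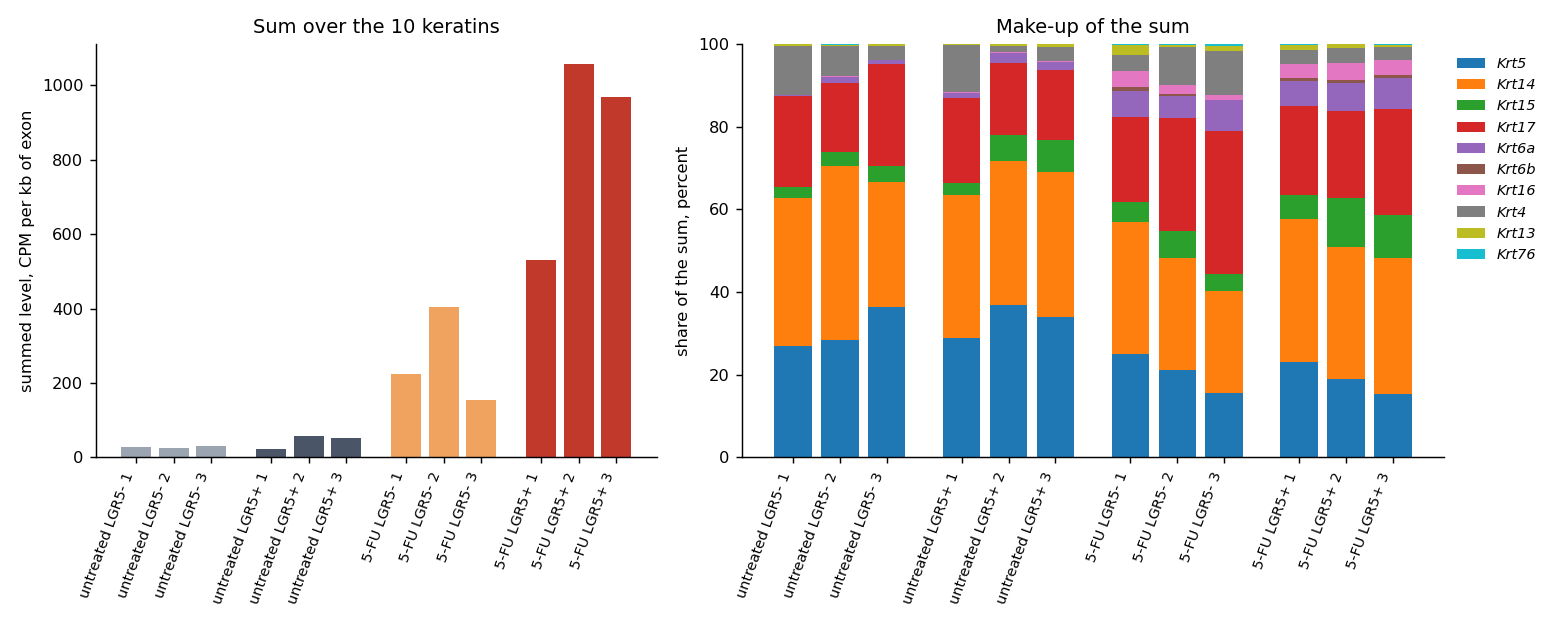
Left, sum of the 10 keratins in each library in CPM per kb of exon; right, percentage of that sum from each gene, in the same library order. The sums of the 5-FU-treated libraries exceed all untreated ones, and the shares of Krt6a (purple) and Krt16 (pink) are larger in each 5-FU-treated library than in each untreated one.

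Among the 10 listed genes, the RNA ratio of type II to type I members was lower after 5-FU. The simple keratins, which stood at a higher level, are not part of this ratio. The per-kb sum of the type II members was 0.590 to 0.701 of that of the type I members in untreated libraries, 0.517 to 0.570 in 5-FU-treated LGR5- and 0.366 to 0.503 in 5-FU-treated LGR5+ libraries, so that the 3 ranges did not overlap. For the basal pair alone, the ratio of Krt5 to Krt14 was 0.674 to 1.21 untreated, 0.634 to 0.776 in treated LGR5- and 0.468 to 0.661 in treated LGR5+ libraries, so that the treated LGR5- range overlapped the untreated one and the treated LGR5+ range lay below it. The ratio of Krt15 to Krt14 was 0.0730 to 0.222 untreated and 0.147 to 0.370 after 5-FU. That of Krt4 to Krt13 was the least stable, with 2.88 to 38.4 in untreated libraries on 2 to 10 reads of Krt13, and 1.62 to 20.1 after 5-FU.

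Relative to simple-epithelium keratins the listed genes stayed the minority. In CPM per kb they made up 1.27% to 3.31% of the sum of the 10 genes and Krt7, Krt8, Krt18 and Krt19 in untreated libraries, 5.51% to 6.11% in 5-FU-treated LGR5- libraries and 8.23% to 12.7% in 5-FU-treated LGR5+ libraries. The 4 simple keratins were themselves higher after 5-FU, and the share of the listed genes was still larger.

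Whether the keratins differed between LGR5+ and LGR5- cells was examined within each treatment. In untreated cells the populations overlapped for 9 of 10 genes, every library being higher in LGR5+ cells for 2.70% of all genes. The remaining gene, Krt16, was higher in every LGR5+ library but had at most 6 reads in any of them. The log2 differences were 0.80 (SE 0.45) for Krt5, 0.60 (SE 0.39) for Krt14, 1.56 (SE 0.79) for Krt15, 1.85 (SE 0.61) for Krt6a and 0.36 (SE 0.40) for Krt17, and -0.30 (SE 0.60) for Krt4. None of the 16157 genes tested was called between untreated populations by edgeR (0.00%), with 214 at an unadjusted p under 0.05 and 0 called by DESeq2.

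For Krt5, Krt6a, Krt13, Krt14, Krt15 and Krt17 the overlap came from 1 library. In untreated LGR5+ cells, library 1 held 40.9 CPM of the 10 keratins, below all 3 LGR5- libraries (47.1 to 57.1 CPM), while libraries 2 and 3 held 109 and 99.2 CPM. The same library also differed in genes outside the list. It had 15665 CPM of the surfactant gene Sftpc, like LGR5- libraries 1 and 2 (16445 and 17335), and 2.14 CPM of Trp63, the transcription factor of basal epithelium, against 2.24 and 2.19. The LGR5- library numbered 3 and the LGR5+ libraries numbered 2 and 3 had 3440 to 5764 CPM of Sftpc and 5.33 to 6.88 CPM of Trp63. The part of this split in the keratin values was not tested.

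After 5-FU, every LGR5+ library was above every LGR5- library for 9 of the 10 keratins, where 14.2% of all genes showed this. The differences on the log2 scale were 2.57 (SE 0.69) for Krt15, 2.28 (SE 0.47) for Krt16, 2.07 (SE 0.72) for Krt6b, 1.94 (SE 0.39) for Krt14, 1.93 (SE 0.43) for Krt6a, 1.51 (SE 0.45) for Krt5, 1.48 (SE 0.38) for Krt17, 1.22 (SE 0.42) for Krt13 and 0.90 (SE 0.54) for Krt76. Krt4, with 0.48 (SE 0.53), was the gene whose populations overlapped. With 1 library left out at a time, the difference ran from 2.19 to 3.34 for Krt15 and from 0.12 to 1.23 for Krt4, the higher value in each case without the treated LGR5- library numbered 2. For Krt13 it ran from 0.96 to 1.91, the latter without the treated LGR5- library numbered 1. By edgeR on all 12 libraries 0 of the 10 were called, as was no other gene (0.00%), although 2095 genes had an unadjusted p under 0.05. DESeq2 called 82 of 16157 genes in either direction, 3 of them members (Krt6a, Krt14 and Krt17).

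The sample titles state no pairing of these 6 libraries, and a pairing by replicate number was inferred from these same counts. Deviations from the group means correlated at 0.217 to 0.571 for libraries of the same number and at -0.395 to 0.117 for the others. With only these 6 libraries and the number as a block, a setting added after the data were seen, 4 members were called higher in LGR5+ cells (Krt5, Krt6a, Krt14 and Krt17). In that fit 1.41% of 15196 genes were called higher and 1.56% lower (2.97% in all). With the block in the fit of all 12 libraries, no gene was called between the treated populations. Trp63 stood at 5.20 to 7.26 CPM in the treated LGR5+ and at 1.99 to 5.14 CPM in the treated LGR5- libraries. The summed level of 7 non-keratin basal epithelium markers ran from 175 to 191 CPM against 145 to 173 CPM. Both pairs of ranges nearly touch, and every LGR5+ library was higher for 14.2% of all genes. Nothing about the keratins is read from them. Without the LGR5- libraries numbered 3, all members kept the sign of their difference, with 1.62 (SE 0.43) for Krt14, 1.75 (SE 0.56) for Krt6a and 0.32 (SE 0.68) for Krt4.

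How far the 5-FU response itself differed between LGR5+ and LGR5- cells was estimated with a contrast of its own. On the log2 scale it was 1.33 (SE 0.54) for Krt14, 1.11 (SE 0.55) for Krt17, 1.01 (SE 1.03) for Krt15, 0.78 (SE 0.80) for Krt4, 0.71 (SE 0.63) for Krt5 and 0.44 (SE 0.86) for Krt13, larger in LGR5+ cells. Leaving out the treated LGR5- library numbered 2 moved it to 1.78 for Krt15 and 1.53 for Krt4, and leaving out that numbered 1 moved it to 1.12 for Krt13. The lowest values with 1 library left out were 0.54 for Krt15, without the untreated LGR5+ library numbered 1, 0.24 for Krt4, without the untreated LGR5- library numbered 1, and -0.01 for Krt13, without the untreated LGR5+ library numbered 1. For Krt6a it was 0.08 (SE 0.90), close to 0, and its sign turned under other settings. For Krt6b, Krt16 and Krt76 no difference is read, because at least 1 untreated group was at or under the floor. No gene of all tested was called for this difference by edgeR (0.00%) or DESeq2, with 254 and 286 genes at an unadjusted p under 0.05. The median over all genes was 0.04.

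Across the 12 libraries the 10 genes moved together. The 45 pairwise Pearson correlations of log2 CPM ran from 0.831 for Krt4 and Krt5 to 0.988 for Krt5 and Krt14, with a median of 0.954. All points share the contrast of treated and untreated libraries, so the values describe the data and are not independent evidence. The genes outside the list that followed the mean of the 10 standardised profiles most closely over the 12 libraries were Krt19 (r = 0.996), the protein C receptor gene Procr (0.993), the epoxide hydrolase gene Ephx1 (0.991), the transcobalamin gene Tcn2 (0.991) and the AP-1 component Junb (0.991). Krt19 was at 387 and 479 CPM in untreated LGR5- and LGR5+ cells and at 1976 and 3689 CPM after 5-FU.

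Other keratin genes, and the gene lists that follow, were tested over all genes. These lists too were chosen with earlier results of these data known, so their p-values are not independent of that choice. Of 45 such genes 44 were in the table and 17 had enough reads. Among these, 11 passed the test upward and 0 downward in 5-FU-treated LGR5+ cells, with a median log2 fold change of 2.41, or 2.35 with Krt36 and Krt42 at their lower bounds. In LGR5- cells 12 passed upward and 0 downward, with a median of 1.75. The simple keratins had smaller log2 fold changes than the listed genes in LGR5+ cells, but no test compared them. The 1-SE ranges of Krt19 and the listed Krt5 (3.38, SE 0.48) overlapped. By edgeR, Krt19 had a log2 fold change of 2.95 (SE 0.31, adjusted p = 2.05e-05), Krt7 2.64 (SE 0.34, adjusted p = 0.000127), Krt8 2.41 (SE 0.41, adjusted p = 0.00110) and Krt18 1.60 (SE 0.29, adjusted p = 0.00155). In LGR5- cells all 4 were called too, with log2 fold changes of 2.35, 1.75, 1.54 and 1.10. Krt33a, a hair keratin, had the higher mean in LGR5- cells after 5-FU, a difference that was not called. It went from 1.21 ± 0.738 to 41.3 ± 5.73 CPM in LGR5- and from 0.978 ± 0.625 to 20.4 ± 3.30 CPM in LGR5+ cells (adjusted p = 7.03e-06 and 1.28e-05, edgeR). Krt90 rose in both populations, from 3.08 ± 1.90 to 69.4 ± 35.4 CPM in LGR5- and from 2.56 ± 1.15 to 104 ± 23.1 CPM in LGR5+ cells. In LGR5+ cells Krt90 (5.34, SE 0.48), Krt33a (4.37, SE 0.42) and Krt79 (3.98, SE 0.48) had larger log2 fold changes than the listed Krt5. Krt10, the keratin of the differentiated epidermis, did not pass the test in either population, with 17.8 ± 3.13 CPM in treated LGR5+ cells against 17.3 ± 3.88 untreated, and its partner Krt1 had at most 3 reads in any library. Krt10, Krt1 and Krt79 were singled out after their values were seen.

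**Figure D4:**
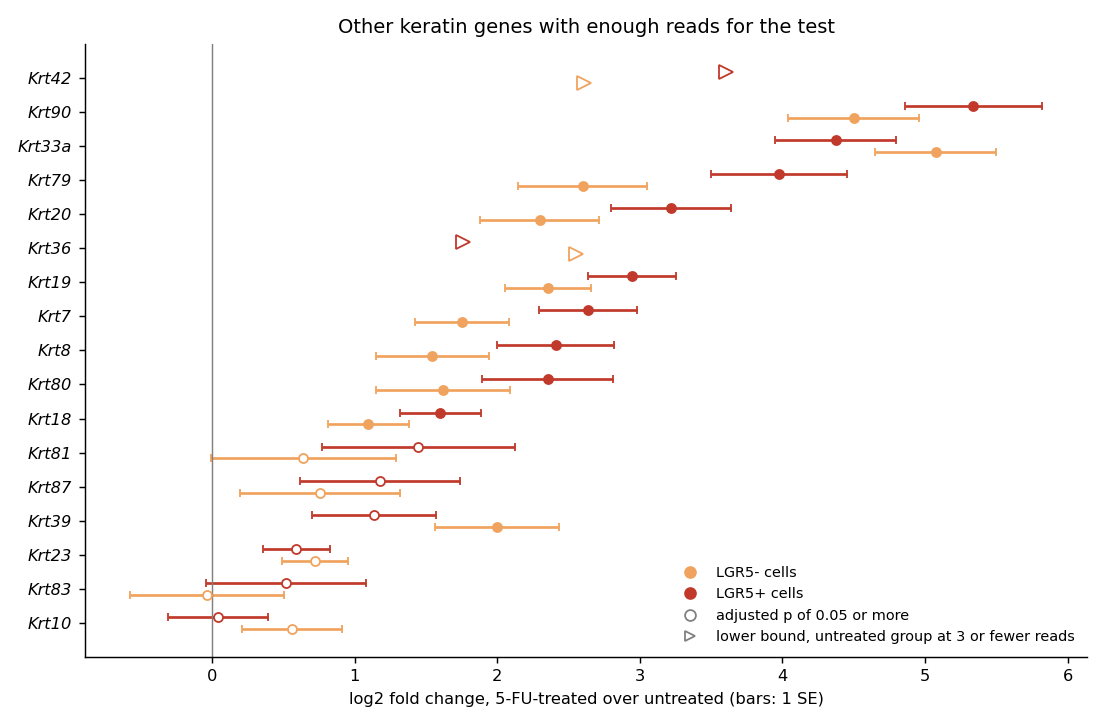
Log2 fold change of 5-FU-treated over untreated cells for the 17 other keratin genes with enough reads, in LGR5+ (red) and LGR5- (orange) cells; bars are ± 1 SE, open circles did not pass an adjusted p of 0.05, and triangles are lower bounds. Krt10, Krt23, Krt81, Krt83 and Krt87 stayed short of the threshold in both populations.

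The transcription factors that govern stratified epithelia did not rise as one group. Of 20 such genes 19 were tested, and 8 were called higher and 0 lower in LGR5+ cells (median log2 fold change 0.57), where 9.66% of all genes were called higher. In LGR5- cells 6 were called higher and 1 lower, Pax9 (median 0.50), where 8.30% of all genes were called higher. Factors of late differentiation were among those that rose: Zfp750, by 2.24 (SE 0.23, adjusted p = 1.95e-05) in LGR5+ and 1.94 in LGR5- cells, and Grhl3, by 2.002 (SE 0.22, adjusted p = 3.36e-05) and 1.65. Fosl1, an AP-1 subunit, rose by 2.66 (SE 0.42, adjusted p = 0.000580) and 2.27 but stayed at 7.29 ± 1.61 CPM or below. Trp63 was not called, with log2 values of 0.31 (SE 0.46, adjusted p = 0.708) and -0.04 (SE 0.48, adjusted p = 0.970). Klf5, Elf3 and Ehf, the genes of the list with the highest CPM, were not called either, with 0.61, 0.18 and -0.07 in LGR5+ cells.

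Genes that anchor keratin filaments at desmosomes and hemidesmosomes were called higher for 10 of 13 tested in LGR5+ and 8 of 13 in LGR5- cells. Of all genes 9.66% and 8.30% were called higher, and no gene of this list was called lower. The count in LGR5- cells was 4 without the untreated LGR5- library numbered 1, and 5 without either the untreated LGR5- library numbered 2 or the treated one numbered 1. The medians of their log2 fold changes were 1.05 and 0.84, smaller than for any listed keratin. The desmosomal cadherin Dsg3 went from 0.202 ± 0.175 to 3.73 ± 0.0961 CPM in LGR5+ cells (adjusted p = 0.000616, edgeR) and was at least 6.50-fold higher in LGR5- cells. Jup, the desmosomal linker plakoglobin, rose by 1.39 (SE 0.23, adjusted p = 0.00101) in LGR5+ and 0.74 (SE 0.23, adjusted p = 0.0426) in LGR5- cells. Dsc2 rose by 1.44 and 0.84 and Plec, the linker plectin, by 1.03 and 0.84. Itga6, the integrin that marks the basal surface, gave 0.00 (SE 0.18, adjusted p = 0.999) and -0.13 (SE 0.18, adjusted p = 0.669).

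Genes of the cornified envelope, the protein shell of differentiated keratinocytes, were called higher for 10 of 16 tested in LGR5+ cells (median log2 fold change 2.32) and 9 of 16 in LGR5- cells (median 2.38), with 0 lower in both. The share of all genes called higher was 9.66% in LGR5+ and 8.30% in LGR5- cells. Krtdap, a keratinocyte differentiation gene, rose most of those named, from 0.820 ± 0.267 to 120.1 ± 49.4 CPM in LGR5+ and from 0.741 ± 0.955 to 32.2 ± 6.69 CPM in LGR5- cells (adjusted p = 1.30e-05 and 0.000117, edgeR). Dmkn reached 142 ± 17.2 CPM in treated LGR5+ cells with a log2 fold change of 3.47 (SE 0.27, adjusted p = 2.33e-06), and Tgm1, the transglutaminase that crosslinks the envelope, 109 ± 23.5 CPM with 3.37 (SE 0.29, adjusted p = 4.45e-06). The envelope plakin Ppl rose by 1.54 and 1.37. Sprr2a1, a small proline-rich envelope precursor, had the highest CPM of the list before treatment, at 421 ± 89.7 and 517 ± 69.3 CPM in LGR5- and LGR5+ cells, and was not called, with 0.14 (SE 0.24) in LGR5+ and 0.58 (SE 0.25) in LGR5- cells.

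Markers of other cell types gave the following levels beside these groups. Summed over 7 genes, macrophage markers were at 40.5 to 92.0 CPM in untreated and 101 to 185 CPM in 5-FU-treated libraries. Their signal came mainly from Lyz2, Cd68 and Cd14. By edgeR, Lyz2 was called higher after 5-FU with a log2 fold change of 1.79 (adjusted p = 0.00263) in LGR5+ and 3.56 (adjusted p = 4.44e-05) in LGR5- cells, and Cd68 with 2.06 (adjusted p = 0.00173) and 1.95 (adjusted p = 0.00326), whereas Cd14 was not called. Adgre1, Csf1r and C1qa, which define macrophages, had at most 7, 11 and 5 reads in any library. The study's sorting used a CD45 stain to remove leukocytes, and Ptprc, the gene of CD45, had 3 to 13 reads in untreated and 5 to 36 in treated libraries, with log2 fold changes of 1.28 in LGR5+ and 0.94 in LGR5- cells that were not called. Cholangiocyte markers summed to 2388 to 3112 CPM in untreated and 3425 to 11895 CPM in 5-FU-treated libraries, ranges that did not overlap, and the sum holds Krt7 and Krt19. Alveolar type 2 markers were at 3507 to 17475 CPM in untreated and 3033 to 6415 CPM in treated libraries. This sum was almost all Sftpc, which was not called, with -1.03 (adjusted p = 0.228, edgeR) in LGR5+ and -1.26 (adjusted p = 0.147) in LGR5- cells on the log2 scale, and 3 other genes of that list were called higher after 5-FU in at least 1 population. Sftpd was called in both populations, with 2.69 (adjusted p = 2.04e-05, edgeR) and 2.48 (adjusted p = 7.16e-05), Lamp3 in LGR5+ cells with 1.19 (adjusted p = 0.00874) and Napsa in LGR5- cells with 1.51 (adjusted p = 0.0295). Sftpa1 was not called at 1.85 in both, and Sftpb was not called at 0.38 and -0.35. Fibroblast markers summed to 49.9 to 52.3 CPM in untreated and 31.97 to 46.5 CPM in treated LGR5+ libraries, which did not overlap, and to 41.1 to 53.3 and 50.9 to 68.1 CPM in LGR5- libraries, which did. Pdgfrb of this list was called lower after 5-FU, with -1.05 (adjusted p = 0.0469, edgeR) in LGR5+ and -1.24 (adjusted p = 0.0241) in LGR5- cells on the log2 scale, and Dcn and Acta2 were not called. Endothelial markers were at 2.36 to 6.30 CPM over all libraries. The basal epithelium markers that are not keratins summed to 97.4 to 129 CPM in untreated and 145 to 173 CPM in treated LGR5- libraries. In LGR5+ libraries they summed to 98.9 to 146 and 175 to 191 CPM, with no overlap within either population. Of all genes, 13.7% in LGR5- and 22.3% in LGR5+ cells were higher in every treated library. Itgb4 went from 25.2 to 62.6 CPM in LGR5- and from 26.1 to 66.2 CPM in LGR5+ cells. Ngfr went from 8.19 to 23.6 and from 8.48 to 24.4 CPM. Itga6, the marker with the highest level, went from 71.9 to 65.5 CPM in LGR5- cells and stayed at 73.2 CPM in LGR5+ cells. Trp63 was called in neither population. The part of these cell types in the keratin values was not tested.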

How the data were processed

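The authors isolated RNA from sorted cells, amplified it with a SMART-type kit, sequenced it as paired 150-base reads and deposited 1 table of whole-number read counts per gene, without normalization. The submitters' processing notes name HISAT2, HISAT, TopHat2, HTSeq and the build mm8, with no roles or versions. Of 47069 Ensembl identifiers, 46488 matched a symbol in GENCODE vM21 (GRCm38) and 581 did not, and gene models on GRCm38 describe that annotation, not the authors' counting. The 10 keratins and the other gene lists were chosen with earlier results of these data known.

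Counts were filtered with filterByExpr (16157 genes kept, all 10 keratins among them), scaled by TMM and fitted on 4 group means with glmQLFit (robust) in edgeR 4.0.16 (limma 3.58.1, R 4.3.3). Contrasts were tested with glmQLFTest and adjusted by Benjamini-Hochberg over all genes tested. SE is the log2 fold change divided by the square root of F. The common dispersion gave a biological coefficient of variation of 26.6%. Folds against groups with at most 3 reads per library were computed against 3 reads, are lower bounds and cover counting error only. They are left out where the compared group had no library above 6 reads. The procedure was tested on simulated counts.

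From each other list the 3 most abundant genes and the 3 with the smallest p in LGR5+ cells after 5-FU are named, and the 5 genes most correlated with the keratins. No libraries were copies: chi-square per degree of freedom was 15.1 to 124 within groups and 4.42 to 239 between other pairs. Deviations of libraries with the same number correlated at 0.217 to 0.571 for the 5-FU-treated populations, where the number was taken as a pair, and not above 0.1 for all 3 numbers in any other pair of groups. Alternatives were fitting unfiltered counts, a minimum of 10 reads in every library, RLE factors, library size only, DESeq2 1.42.0, a replicate block, only the libraries compared and each library left out, and, added after the data were seen, leaving out both LGR5- libraries numbered 3 and the block on the 6 treated libraries.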

Additional observations from a re-analysis of the deposited data

How the results depend on the processing

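All 10 keratins stayed called after 5-FU in both populations with any 1 library left out and under RLE factors, library size only, DESeq2 and the replicate block (10 in each population). They also stayed called in LGR5- cells without both libraries numbered 3. With only the libraries compared, all 10 stayed called in LGR5+ cells. In LGR5- cells Krt6b did not enter that fit, and the other members stayed called. Without a filter Krt6b in LGR5- cells was not called (adjusted p = 0.106, edgeR). Requiring 10 reads in every library left 5 members in the fit, all 5 called in each population, and 6 of 11 other keratins called in LGR5+ cells, by its construction. With only the libraries compared, 7 other keratins were called in LGR5- cells, and leaving out 1 library gave 4 to 9 called filament attachment genes there, the lowest value without the untreated LGR5- library numbered 1; the cause was not tested. Between treated populations DESeq2 called 3 keratins and the replicate block on the 6 libraries 4, and the other alternatives 0; the replicate block on all 12 libraries also called 0.

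The sign of some small differences was unstable, and the cause was not tested. The response difference of Krt6a was -0.038 by library size only, -0.19 without both LGR5- libraries numbered 3, and ran from -0.37 to 0.58 with single libraries left out. That of Krt13 ran from -0.0075 to 1.12 in the same way. Fitted values for Krt16 ran from -2.89 to 0.24, but rest on 0, 2 and 0 reads in untreated LGR5- cells, and neither a size nor a direction is read from them. The untreated difference of Krt4 ran from -0.67 to 0.24, and was above 0 without LGR5- library 1 or LGR5+ library 2. By library size only, the median of all genes in LGR5+ cells was -0.10 on the log2 scale. Genes called after 5-FU in LGR5+ cells numbered 2590 of all tested, 4045 with only the libraries compared and 1373 to 2488 with 1 library left out, and in LGR5- cells 2489, 1282 and 1562 to 3418.

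Depth limits Krt6b, Krt16 and Krt76, whose untreated counts were at or near 0. Shared sequence limits the separate values of Krt6a and Krt6b.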

Other observations

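The reads of Krt6a per read of Krt6b were 6.95 and 12.1 in the first 2 treated LGR5- libraries and 8.73, 11.1 and 11.8 in the treated LGR5+ libraries. In the treated LGR5- library numbered 3 the ratio was 126, from 379 and 3 reads, and the exact 95% Poisson interval of the 3 reads was 0.619 to 8.77. That library also had the highest share of mitochondrial reads among the treated ones, 6.44%, and the part of this in the ratio was not tested.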
